A study of Mus musculus with 4 samples.

Results

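P2X7 receptor knockout and wild-type mice were compared in the amygdala 6 h after lipopolysaccharide (LPS), the cell-wall component of Gram-negative bacteria used to provoke an innate immune response. The comparison used the 4 arrays of the knockout LPS group and the 4 arrays of the wild-type LPS group, 8 of the 16 one-colour Agilent arrays of the study. All mice were 10-week-old males, labelled C57BL/6J in both genotypes, and were killed 6 h after an intraperitoneal injection. The knockout is given only as P2X7R -/-. Its targeting construct and whether the wild-type mice were littermates are not given in the sources used here. The LPS dose is given in 2 forms, 7.5 µg per mouse and 250 µg per kg body weight. The remaining 8 arrays come from wild-type and knockout mice given saline, and their values are set beside those of the LPS arrays where they bear on a result. The labels give 4 mice in each group but do not tie an array to a mouse, so p-values measure the spread between arrays.

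P2X7 is a cation channel opened by high extracellular ATP. In macrophages and microglia its opening lets potassium leave the cell, which activates the NLRP3 inflammasome and the release of interleukin-1β from cells already primed by a signal such as LPS. LPS itself acts through Toll-like receptor 4 on cells of the periphery and of the brain's borders, and switches on chemokine, NF-kB target, interferon-stimulated and acute-phase genes. The amygdala holds neurons, astrocytes, oligodendrocytes, their precursors and microglia, and receives immune signals through its vessels and the nearby choroid plexus.

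Each gene was read by 1 or more probes of 60 bases, and the probe sequences matter here because probes of a single gene often gave different answers. The pair on Elmod1, which encodes a protein that acts on Arf-family GTPases, is shown because its probes overlap and gave the same difference (in capitals, the 39 bases they share). They cover chr9:53767480-53769135 and chr9:53767501-53769156 on the minus strand of mm9, each across an intron.
Elmod1, A_51_P118061: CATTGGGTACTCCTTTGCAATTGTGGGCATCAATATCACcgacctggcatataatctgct
Elmod1, A_52_P285635: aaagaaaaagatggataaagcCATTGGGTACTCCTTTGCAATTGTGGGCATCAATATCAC
Their knockout minus wild-type differences were -2.29 and -2.21 on the log2 scale. The pair on Hsbp1, whose product binds heat shock factor 1, is shown as the opposite case, chosen after its values were seen (capitals mark the 40 shared bases). They cover chr8:121868845-121869514 and chr8:121868865-121869534 on the plus strand.
Hsbp1, A_52_P544556: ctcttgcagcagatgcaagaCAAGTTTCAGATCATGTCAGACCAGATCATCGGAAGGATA
Hsbp1, A_52_P544555: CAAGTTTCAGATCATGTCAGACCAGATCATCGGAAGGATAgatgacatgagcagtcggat
The first was lower in the knockout by -0.51 (adjusted p = 0.0213) and the second higher by 0.43 (adjusted p = 0.0253) in limma's moderated test adjusted over probes. Another Hsbp1 probe further downstream differed by 0.15 (adjusted p = 0.457, limma). Sequences in this account are those of the deposited array annotation, 5′ to 3′.

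The targeted gene, P2rx7, was read by 2 probes that differed from each other. Values are relative log2 intensities, the log2 processed intensity of a probe minus the log2 of its array's 75th percentile, so 0 is the brightness of the probe at that percentile. The downstream probe (chr5:123134194-123134253, plus strand) read 0.14, 0.28, 0.07 and 0.70 on wild-type LPS arrays 1 to 4 and -1.08, -1.21, -1.69 and -1.43 on knockout LPS arrays 1 to 4. The groups did not overlap, and the difference was -1.65 ± 0.195 (SE; adjusted p = 0.00019 over probes, limma). After saline the same probe differed by -1.51. In the authors' deposited table this probe is 3.14-fold lower in the knockout. The second probe spans an intron (chr5:123120528-123123413).
P2rx7, A_51_P506733: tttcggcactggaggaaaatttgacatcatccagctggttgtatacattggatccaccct
It read -4.28, -3.90, -4.28 and -3.53 in the wild type and -4.02, -3.58, -4.18 and -3.95 in the knockout, well above background on 4 and 3 arrays. The groups overlapped throughout, with a difference of 0.06 ± 0.21 (adjusted p = 0.815, limma). The sources used here do not say which exons were deleted, so these probes do not settle the check of the labels. The rule for counting, given below, needs every probe to differ in the same direction, whatever the size. The signs of -1.65 and 0.06 differ, so P2rx7 was not counted among the lower genes.

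**Figure D1:**
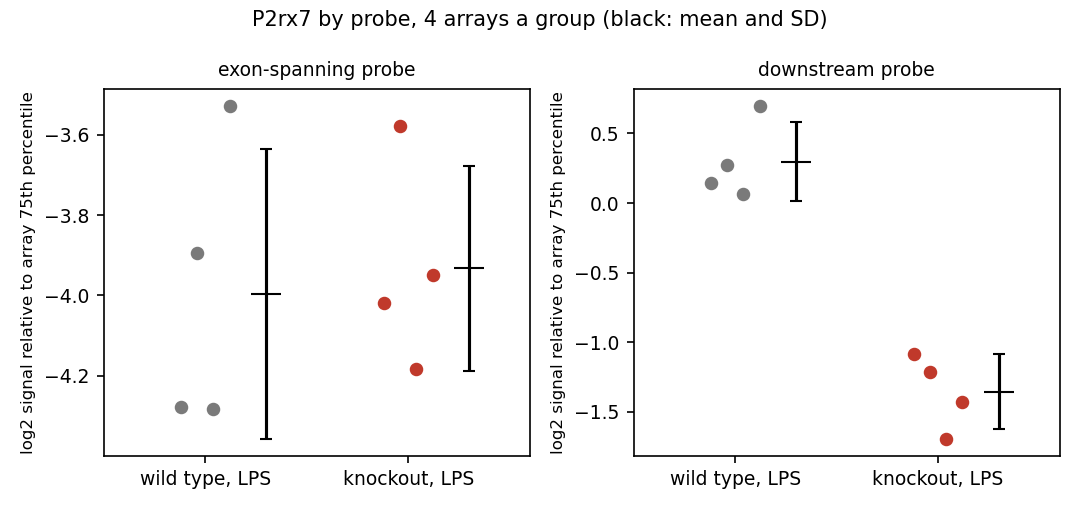
Relative log2 intensity (y axis, log2 units above or below the array's 75th percentile) of the 2 P2rx7 probes on each array, by group; points are arrays and the black bars give the mean and SD of 4. The downstream probe separates knockout from wild-type LPS arrays by -1.65, while the exon-spanning probe overlaps between them at about the same dim level (difference 0.06).

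The arrays of the genotypes were scanned in different sessions. Both wild-type groups lay on slides 1 and 2 of the first session and both knockout groups on slides 3 and 4 of the second, so genotype and scan session cannot be told apart in any value below. The 75th percentile of processed intensity lay between 581.32 and 1062.75 units on the wild-type LPS arrays and between 383.42 and 614 on the knockout LPS arrays, with 58.09% to 71.88% of probes well above background and no saturated spot. Over the 8 arrays, the leading principal component (71.94% of variance) separated the genotypes. The number of arrays limits the precision, and no 2 arrays were near-copies of each other (smallest median difference 0.163 over 22077 probes). Of the labelled tissue's markers, 25 of 25 general neuronal genes, 27 of 28 genes of cortex, hippocampus and basolateral amygdala and 22 of 25 of striatum and central amygdala were detected. So were all 14 choroid plexus markers, which belong to a tissue outside the amygdala. Wild-type saline arrays 1 and 2 stood near the LPS arrays in inflammatory genes (mean interferon-stimulated level 0.10 and 0.05, against -2.80 and -2.88 on wild-type saline arrays 3 and 4), so saline differences of such genes are also given without them.

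A large share of the genes differed between the genotypes after LPS. Of 18817 genes tested, 10512 (55.9%) passed an adjusted p of 0.05 on their brightest probe (limma, Benjamini-Hochberg). A gene was counted as higher or lower only where every detected probe also differed in that direction. By that rule 4769 genes were higher in the knockout (25.3%) and 4189 lower (22.3%). The counts of list members given below are to be read beside these shares. Another 1554 genes passed the test but had probes that disagreed in direction. The 2 groups of 4 arrays did not overlap in 9881 genes (52.5%). Of the counted genes, 4570 differed at least 2-fold, 2640 higher and 1930 lower. The median difference over all genes was 0.04 and the median size of a difference 0.612. The share of counted genes that were higher was 53.2%, but 63.8% with normexp background correction (5285 higher, 2999 lower), a setting that moved the median of all genes to 0.123. In the authors' deposited table, 3394 probes are 2-fold or more higher and 3350 lower.

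Probes of a single gene give a second reading of the same RNA, though not of the session. Among 6076 genes with 2 or more detected probes, 1719 were counted (28.3%), 679 higher and 1040 lower. In genes with exactly 2 probes, the probes differed in the same direction in 2470 of 4290 genes (57.58%), and in 895 of 1380 (64.86%) where both probes passed the test. For the LPS response within the knockout, measured on the same probes and within the second session, the shares were 66.95% and 100% (83 of 83). At the level of probes, 15384 of 27255 (56.4%) were called between genotypes after LPS and 926 (3.4%) between LPS and saline in the knockout. These comparisons share the knockout LPS arrays, so the values are set side by side only.

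Agreement depended on how far apart the probes lay. Over the 192 genes whose probes overlap, 74% had the same direction, and the differences of the probes correlated across genes with r = 0.605. With probes under 1 kb apart it was 60.7% and r = 0.276 (1103 genes), from 1 to 10 kb 55.4% and r = 0.149 (2042 genes), and over 10 kb 55.5% and r = 0.089 (903 genes). For the LPS response in the knockout the overlapping probes gave r = 0.87 and the most distant r = 0.476. Genes are not independent replicates, and the points share arrays. Base composition of the probe moved with the difference too: the median was -0.265 for genes whose probe held up to 35% G+C and 0.48 above 55%. Its part in the result was not tested beyond a fit with G+C regressed out, which left 4343 genes higher and 4322 lower.

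**Figure D2:**
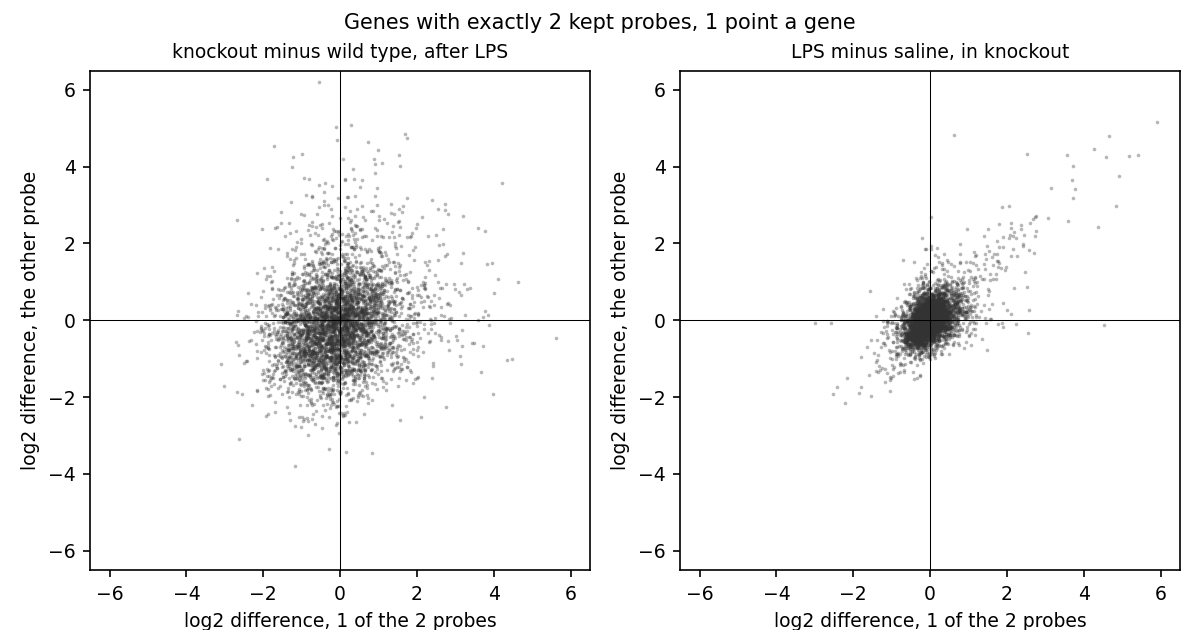
Knockout minus wild-type log2 difference of one probe (x axis) against the other probe (y axis) for genes with exactly 2 detected probes, after LPS, beside the LPS minus saline log2 difference in the knockout; each point is a gene and 1 of 4290 lies outside the axes of each panel. The probes share direction in 57.58% of genes for the genotype difference and in 66.95% for the LPS response.

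Some genes gave large differences of opposite sign on their own probes. Foxp2, a transcription factor of striatal and amygdala neurons, is shown for one of these.
Foxp2, A_51_P233753: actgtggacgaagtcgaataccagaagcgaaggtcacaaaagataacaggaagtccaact
This probe (chr6:15363873-15365044, plus strand) was higher in the knockout by 2.10 ± 0.14 (adjusted p = 1.63e-05, limma over probes). The other Foxp2 probe was lower by -2.53 ± 0.49 (adjusted p = 0.00215). Slc4a4, a bicarbonate transporter of astrocytes, had probes at -3.68, -1.38 and 2.80. Mbp, myelin basic protein, had probes at -1.97, -1.35 and 2.84, and Hspa8, a constitutive chaperone, at -1.35 and 3.68. Zcchc8, a part of the nuclear RNA exosome targeting complex, had probes at -1.78, 0.63 and 2.14. None of these was counted in either direction.

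The counted genes with agreeing probes and the largest differences had varied textbook roles. Bin1, whose protein bends membranes, read 0.99, 1.57, 0.71 and 1.70 in the wild type and 5.27, 5.44, 5.21 and 5.50 in the knockout, a difference of 4.11 ± 0.23 (adjusted p = 7.79e-06, limma). The groups lay far apart, but its second probe differed by 1.06 ± 0.25. Rpl6, a protein of the large ribosomal subunit, read 0.86, 2.84, 0.69 and 2.65 against 5.25, 5.53, 5.61 and 5.92 (3.82 ± 0.48, adjusted p = 0.000258, limma). Its wild-type arrays fell into the pair on slide 1 (arrays 1 and 3) and the pair on slide 2 (arrays 2 and 4). The second Rpl6 probe differed by 1.47 ± 0.16.
Rpl6, A_52_P104918: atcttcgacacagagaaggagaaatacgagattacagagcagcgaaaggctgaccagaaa
This brighter probe (chr5:121658564-121658829, plus strand) is printed because ribosomal protein genes have many processed copies in the genome, which makes the gene it reads uncertain. The other genes of largest increase were the uncharacterised 4933440N22Rik (4.19 ± 0.36), the nuclear body antigen Sp100 (3.24 ± 0.24), the heparan sulfate glycosyltransferase Extl3 (3.22 ± 0.32), the growth factor Vegfb (3.21 ± 0.28) and the chemokine Ccl5 (3.13 ± 0.46). The list ended with the mRNA-decay factor Khsrp (3.09 ± 0.31), the actin regulator Gmfg (2.99 ± 0.25) and the RNA helicase Ddx24 (2.89 ± 0.18).

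Among counted genes with 2 or more agreeing probes, groups that did not overlap and the brightest probe detected on all 8 arrays, the largest lower difference was that of Cttn, cortactin, which binds actin at the cell edge. It read 1.69, 1.52, 1.75 and 1.97 in the wild type and -0.56, -0.44, -1.04 and -1.84 in the knockout (-2.70 ± 0.29, adjusted p = 0.00012, limma). Hpca, hippocalcin, a neuronal calcium sensor, read 4.09, 3.13, 4.23 and 4.00 against 1.18, 0.93, 1.96 and 0.90 (-2.62 ± 0.30, adjusted p = 0.000168, limma). Neither gene's groups overlapped. Xiap, an inhibitor of caspases, differed by -2.63 ± 0.31 over 3 agreeing probes and the paraoxonase Pon2 by -2.53 ± 0.41 over 4. The chloride channel protein Clic6, abundant in choroid plexus, differed by -2.41 ± 0.39, with wild-type array 4 (0.36) far below the other wild-type arrays (1.6 to 2.25). Nrep (-2.39 ± 0.50), the chromatin remodeller Smarca5 (-2.38 ± 0.26), the endosomal sorting protein Stam2 (-2.31 ± 0.24), Elmod1 (-2.29 ± 0.26) and Slc35f4 (-2.25 ± 0.51) completed the 10. Smarca5 has 4 probes: 2 differed by -2.38 and -1.55 and 2 by -0.10 and -0.06. Its brightest probe changed to one of the flat ones without wild-type array 3 (-0.12), without wild-type array 4 (-0.26), without slide 2 (-0.51) and without slide 1 (0.38).

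A small set of genes was detected in only one genotype. Vmn1r46, a vomeronasal receptor with many close relatives, was well above background on 4 knockout and 0 wild-type arrays and at least 25.02-fold higher in the knockout. The bound sets the knockout mean against the dimmest detected signal, or the probe's own where that was brighter, on the wild-type arrays. Tex101, a testis protein, was at least 9.65-fold higher and the tight-junction protein Cldn15 at least 9.42-fold higher. In the other direction, the chaperone Dnajb8 was at least 8.25-fold lower and the kinesin Kif12 at least 6.10-fold lower. These rest on 1 probe each. After saline Dnajb8 differed by -0.95 (adjusted p = 0.55, limma) and Kif12 by -0.07 (adjusted p = 0.97, limma). For neither gene was the contrast of LPS and saline differences called.

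**Figure D3:**
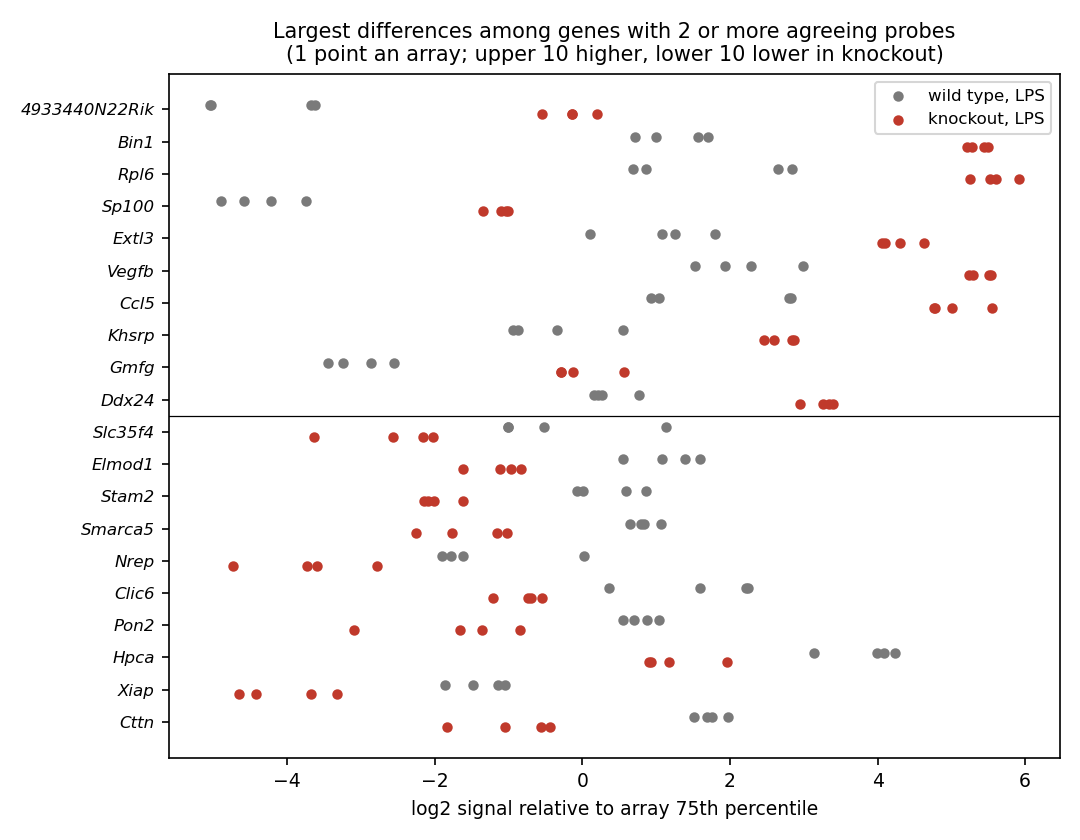
Relative log2 intensity (log2 units, x axis) of each of the 10 highest and 10 lowest counted genes with agreeing probes, on 4 wild-type and 4 knockout LPS arrays; points are arrays. No gene's groups overlap, a condition of the choice; the differences run from 2.89 (Ddx24) to 4.19 (4933440N22Rik) above the line and from -2.25 (Slc35f4) to -2.70 (Cttn) below it.

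Chemokines and cytokines that were counted were all higher in the knockout. Of 19 measured members of that list, 8 were counted higher and 0 lower, with a median difference of 1.63 against 0.04 over all genes and 25.3% of all genes counted higher. Ccl5, which draws T cells and monocytes, read 1.04, 2.83, 2.80 and 0.93 in the wild type and 4.77, 5.0, 4.78 and 5.56 in the knockout (adjusted p = 0.000547, limma), and its second probe differed by 2.38. Ccl3, a macrophage chemokine, read -5.11, -2.67, -3.64 and -6.38 against -0.47, -0.46, -1.14 and 0.32 and was detected on 2 of 4 wild-type arrays, so it was kept only through the knockout arrays and no test is given. Its neighbour Ccl4 read -3.93, -2.59, -2.14 and -4.15 against -0.39, -0.12, -0.46 and 0.90 (3.18 ± 0.48, adjusted p = 0.000629, limma). In these genes the groups did not overlap, and wild-type arrays 1 and 4 were the lowest. Cxcl16, the ligand of CXCR6, differed by 1.26 ± 0.29.

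Members that were not counted showed the same uneven wild type. Ccl2, the main monocyte chemokine, read 0.41, 3.59, 3.92 and -0.10 in the wild type and 3.78 to 4.32 in the knockout (2.09 ± 0.85, adjusted p = 0.0608, limma). Tnf read -7.68, -4.80, -4.19 and -6.83 against -4.40 to -4.04. It was not well above background on all 8 arrays, and dim spots carry surrogate values, so no test is given. In both genes wild-type arrays 2 and 3 lay near or within the knockout range and arrays 1 and 4 far below it. Cx3cl1, the neuronal ligand of the microglial receptor Cx3cr1, had probes that disagreed. The list's median was 1.05 without wild-type array 1. The count of 8 was 5 without wild-type array 1, 5 without wild-type array 4, 5 in the fit of all 16 arrays and 3 without slide 4 (knockout arrays 2 and 4). Ccl5 did not pass in the fit of all 16 arrays, and Cxcl16 did not pass without slide 4 or as a mean over its probes.

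The inflammasome and interleukin-1 group, the pathway P2X7 is best known for, had 9 of 17 measured members counted higher and 1 lower. These are 52.9% and 5.9%, against 25.3% and 22.3% of all genes. The median was 0.79, and 5 were higher without slide 4. Nlrp3, the inflammasome sensor, read -6.14, -5.74, -5.59 and -5.15 in the wild type and -3.03, -3.83, -3.33 and -3.77 in the knockout (2.17 ± 0.25, adjusted p = 0.000165, limma). Pycard, the adaptor ASC, read -0.41, -0.30, -0.04 and -0.56 against 0.75, 0.95, 0.95 and 1.64 (1.40 ± 0.21, adjusted p = 0.000611, limma), with 2 agreeing probes. Both genes were separated by group. Il33, an alarmin of the interleukin-1 family, differed by 1.02 ± 0.14 and Casp8, an apoptotic and inflammasome caspase, by -1.08 ± 0.18. Casp1, which cleaves pro-interleukin-1β, did not pass (0.22 ± 0.18, adjusted p = 0.31, limma). After saline the difference of Nlrp3 was 1.89, of Il33 0.89 and of Casp8 -1.70.

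Receptors and enzymes for extracellular ATP and adenosine were counted not far from the shares over all genes (25.3% higher, 22.3% lower). Of 24 measured members, 8 were counted higher and 4 lower, with a median of 0.23. P2rx2, another ATP-gated channel, differed by 2.24 ± 0.25 and P2ry6, the microglial UDP receptor, by 1.06 ± 0.12. P2ry6 read -0.35, -0.19, -0.24 and -0.21 in the wild type and 0.77, 0.69, 0.96 and 0.81 in the knockout, a narrow spread on both sides. After saline it differed by -0.17 (0.12 without wild-type saline arrays 1 and 2), neither passing the test. The contrast of its LPS and saline differences was not called. P2ry1, an ADP receptor, read -0.06, -0.77, -0.70 and -1.16 against -3.07, -3.50, -2.48 and -2.16 (-2.13 ± 0.32, adjusted p = 0.000611, limma), and -1.96 after saline. Alpl, an ectoenzyme that removes phosphate from adenine nucleotides, differed by 1.55 ± 0.15. The median turned to -0.10 when all probes of a gene were averaged, and the lower count was 7 without wild-type array 3. The median was 0.48 without wild-type array 1, 0.49 without slide 2 and 0.45 without slide 4.

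Genes of the LPS receptor pathway had a median near that of all genes (0.00 against 0.04). Of 24 measured, 5 were counted higher (20.8%, against 25.3% of all genes) and 3 lower (12.5%, against 22.3%). Tlr4, the LPS receptor, differed by -0.51 ± 0.20 (adjusted p = 0.053, limma). Tlr2, the receptor for bacterial lipoproteins, differed by 1.75 ± 0.46, its wild-type arrays at -1.59, 0.53, 0.57 and -1.08 and its knockout arrays from 1.19 to 1.5. That call did not pass without slide 3 or without slide 4. Traf6, the ubiquitin ligase below the Toll-like receptors, differed by -1.62 ± 0.34 and Tab2, its kinase adaptor, by 0.63 ± 0.12. The counts were 2 higher without slide 3, and 3 higher and 1 lower without slide 4. Irak1, a kinase of the same route, had probes at 1.44, -0.38 and -0.78.

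NF-kB subunits, targets and feedback inhibitors were mostly higher where they were counted. Of 25 measured, 11 were higher (44.0%, against 25.3% of all genes) and 1 lower (4.0%, against 22.3%). The median was 0.54 (0.36 without wild-type array 1), and 7 were higher without slide 4. Zc3h12a, the RNase regnase-1 that degrades inflammatory mRNAs, was well above background on no wild-type array and read -3.05, -2.75, -2.55 and -2.65 in the knockout, at least 8.32-fold higher. Socs1, a brake on cytokine signalling, read -1.25, -0.36, -0.60 and -0.95 against 0.69, 1.08, 1.03 and 1.08 (1.76 ± 0.21). Nfkbie and Nfkbia, which hold NF-kB in the cytoplasm, differed by 2.14 ± 0.27 and 1.68 ± 0.26. Vcam1, an endothelial adhesion molecule, was the lower member: it read 2.90, 2.58, 2.95 and 2.02 in the wild type and 0.90, 0.81, 0.89 and 0.43 in the knockout (-1.85 ± 0.22, adjusted p = 0.000208, limma), with 2 agreeing probes. After saline Vcam1 differed by -1.91, Socs1 by 0.05 and Zc3h12a by 1.57. Without wild-type saline arrays 1 and 2 they differed by -1.58, 0.49 and 0.63, where Socs1 and Zc3h12a did not pass. The contrast of LPS and saline differences was called in none of these genes. Zc3h12a was well above background on 1 of 4 saline arrays in each genotype. Nfkb1 had 4 probes from -0.99 to 0.96.

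Interferon-stimulated genes had 16 of 44 measured members counted higher (36.4%, against 25.3% of all genes) and 1 lower (2.3%, against 22.3%). Their median was 0.56, and 0.33 without wild-type array 1. The GTPase-like Ifi44 read -5.23, -2.82, -3.46 and -3.25 in the wild type and -0.28, -0.18, 0.13 and -0.03 in the knockout (3.60 ± 0.45, adjusted p = 0.00023, limma). Rsad2, the antiviral enzyme viperin, read -1.63, -0.18, -0.47 and -0.69 against 0.97, 1.6, 2.07 and 1.49 (2.28 ± 0.33, adjusted p = 0.00048, limma) with 3 agreeing probes. Neither gene's groups overlapped, and wild-type array 1 was the lowest in both. Stat2, a transducer of interferon signals, differed by 1.61 ± 0.20 and the antiviral GTPase Mx2 by 1.48 ± 0.23. The higher count was 8 without slide 3, 10 without slide 4 and 7 in the fit of all 16 arrays.

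Acute-phase genes had 6 of 13 measured members counted higher (46.2%, against 25.3% of all genes) and 1 lower (7.7%, against 22.3%). Their median was 0.92. Saa1, serum amyloid A, read -1.14, 1.06, 0.60 and 0.02 in the wild type and 2.36, 2.61, 2.19 and 3.58 in the knockout (2.56 ± 0.47, adjusted p = 0.00167, limma); Saa family members are near-identical, so which of them the probes read is uncertain. Saa3 differed by 2.55 ± 0.61, the haemoglobin scavenger Hp by 1.68 ± 0.42 and the siderophore-binding Lcn2 by 1.40 ± 0.38. Knockout array 4 was the highest of all arrays in these 4 genes. Ptx3, a pentraxin, read -3.01, 1.96, 1.47 and -2.71 in the wild type and 0.36 to 0.68 in the knockout and did not pass (adjusted p = 0.405, limma). Saa3, Hp and Lcn2 did not pass in the fit of all 16 arrays, nor Saa3 and Lcn2 without slide 4 and Hp without slide 1. The higher count was 1 in that fit, 2 without slide 4 and 3 without slide 1.

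Markers of neutrophils and monocytes, cells that enter from blood, were counted only as higher, but on few genes and with a count that changed between settings. Of 10 measured, 5 were counted higher (against 25.3% of all genes) and 0 lower (against 22.3%). Their median was 0.69. The mean list level ran from -2.41 to -1.42 on the wild-type arrays and from -1.41 to -0.32 on the knockout arrays. S100a9, a neutrophil protein, read -0.88, 0.91, 0.65 and -0.53 against 1.19, 2.03, 1.46 and 3.31 (1.96 ± 0.53, adjusted p = 0.0114, limma). Its partner S100a8 differed by 2.05 ± 0.65, lysozyme Lyz2 by 1.25 ± 0.27 and the myeloid receptor Cd300lf by 2.26 ± 0.54. Knockout array 4 was the highest for S100a9, S100a8 and Lyz2, as for the acute-phase genes. The higher count was 3 without wild-type array 4, 3 without knockout array 4, 3 without slide 1, 1 without slide 4 and 1 in the fit of all 16 arrays, and the median was 0.01 without slide 4. With single arrays left out the median ran from 0.154 (knockout array 1), 0.169 (knockout array 4) and 0.185 (knockout array 2) to 1.23, 1.26 and 1.33 (wild-type arrays 4, 3 and 2), and it was 1.34 without slide 2. S100a8, S100a9 and Cd300lf did not pass in the fit of all 16 arrays or without slide 4, nor S100a8 without wild-type array 1 or 4, knockout array 4 or slide 1. Of the erythrocyte markers, a sign of blood in the tissue, 3 of 8 were detected and 1 was counted higher. The part of these cells in the inflammatory differences was not tested. In tissue RNA, more cells of a type and more RNA per cell cannot be told apart.

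Complement and antigen-presentation genes had 8 of 25 measured members counted higher (32.0%, against 25.3% of all genes) and 2 lower (8.0%, against 22.3%). The median was 0.24, but -0.02 with probe G+C regressed out, and 5 were higher without slide 3 or slide 4. Without single arrays the median ran from 0.127 (knockout array 2 left out) and 0.13 (wild-type array 1) to 0.425 (wild-type array 2) and 0.459 (wild-type array 3), and it was 0.08 without slide 4. Psmb10, an immunoproteasome subunit, read 2.78, 3.54, 3.38 and 3.67 in the wild type and 4.98, 4.98, 5.16 and 5.47 in the knockout (1.80 ± 0.21, adjusted p = 0.000193, limma), and 1.82 after saline. H2-Eb1, a class II molecule, differed by 1.59 ± 0.19. C1ra, a protease of the classical complement route, read -6.93, -3.58, -6.86 and -7.17 against -0.99, -0.75, -0.96 and -0.81 and was detected on 1 of 4 wild-type arrays. It was kept only through the knockout arrays, so no test is given. After saline C1ra differed by 0.01, and by 1.34 (adjusted p = 0.065, limma) without wild-type saline arrays 1 and 2. C3, the central complement protein, did not pass (-0.66 ± 0.47, adjusted p = 0.253, limma).

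Microglial markers, the cells in which P2X7 is best studied, stood near the share over all genes. Of 23 measured, 5 were counted higher and 4 lower, with a median of -0.11 that was 0.12 with normexp. Aif1, the cytoskeletal protein IBA1, read -0.93, -0.33, -0.70 and -0.27 in the wild type and 1.71, 1.64, 1.71 and 1.84 in the knockout (2.28 ± 0.17, adjusted p = 2.64e-05, limma). Ptprc, the leukocyte phosphatase CD45, read -0.04, -0.21, 0.24 and -0.27 against -1.28, -1.31, -1.37 and -1.08 (-1.19 ± 0.15, adjusted p = 0.000278, limma). Each gene had 2 agreeing probes and no overlap, so markers of the same cells differed in opposite directions. Cst3, cystatin C, was higher by 2.02 ± 0.20, while the probes of Itgam (-0.73 and 3.23) and Cx3cr1 (-1.28 and 0.30) disagreed. After saline Aif1 differed by 2.47 and Ptprc by -1.62. Perivascular macrophage markers had 3 of 11 higher (27.3%, against 25.3% of all genes) and 4 lower (36.4%, against 22.3%). Among them was the scavenger receptor Cd163 (2.46), detected on 2 of 4 wild-type arrays and kept only through the knockout arrays. Without slide 1, 3 or 4, 1 member of that list was counted higher and at most 1 lower, and with single arrays left out the counts ran from 1 to 4 higher and from 1 to 3 lower. The lowest counts came without knockout array 3 (1 higher) and without wild-type array 1, knockout array 1 or knockout array 4 (1 lower each).

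Hcar2, the receptor for butyrate and niacin on myeloid cells, lies within 5 Mb of P2rx7. It read -5.57, -4.12, -4.37 and -5.70 in the wild type and -1.21, -1.05, -1.08 and -0.91 in the knockout and was detected on 2 of 4 wild-type arrays, so it too was kept only through the knockout arrays and has no test. It was not well above background on any of the 8 saline arrays, so neither a saline difference nor its contrast with LPS is given. For Ccl4 the difference was 3.18 after LPS and -1.67 after saline. The contrast between them, 4.86, passed the test (adjusted p = 0.0405, limma over 16 arrays). The Ccl4 saline difference was -1.06 without wild-type saline arrays 1 and 2, which lay closer to the LPS arrays in cytokine level than wild-type saline arrays 3 and 4 (list level -1.0 and -0.45 against -4.29 and -4.48). Ccl4's contrast did not pass without those arrays.

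Oligodendrocyte and myelin genes were lower in the knockout more often than any other list described here. Of 24 measured, 17 were counted lower and 1 higher, against 22.3% of all genes, and the median was -1.26 (-0.85 with normexp). Fa2h, which makes the hydroxylated fatty acids of myelin lipid, read 1.5, -0.41, 1.25 and 0.65 in the wild type and -2.67, -2.40, -2.47 and -2.06 in the knockout (-3.15 ± 0.37, adjusted p = 0.000188, limma). Tspan2, a myelin tetraspanin, read 4.49, 3.65, 4.36 and 4.76 against 2.49, 2.36, 2.66 and 2.81 (-1.73 ± 0.23, adjusted p = 0.00035, limma). Ugt8a, the galactolipid synthase of myelin, read 0.01, -1.37, -0.87 and -0.30 against -2.54, -2.46, -2.18 and -2.86 (-1.88 ± 0.29, adjusted p = 0.000716, limma). Knockout arrays lay close together in all 3 genes, while wild-type array 2 was the lowest wild-type array. Of the 10 members with 2 or more probes, 8 were counted lower and 0 higher.

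The mean myelin level by array was 1.45, 0.40, 0.63 and 1.28 in the wild type after LPS and -0.21, -0.17, -0.23 and -0.19 in the knockout. After saline it was 0.59, 0.64, 1.48 and 1.52 in the wild type and 0.62, 0.19, 0.16 and 0.01 in the knockout, where 12 members were counted lower and 1 higher (16 and 0 without wild-type saline arrays 1 and 2). The wild-type arrays with high myelin levels, arrays 1 and 4 after LPS and 3 and 4 after saline, were those with low cytokine levels. Which share of white matter each dissection held was not tested. Precursor genes had 9 of 14 members counted lower (64.3%, against 22.3% of all genes) and 1 higher (7.1%, against 25.3%). Their median was -0.81, and the lower count was 5 with normexp, 4 without slide 3 and 4 without slide 4. Gpr17, a receptor of committed precursors, differed by -1.58 ± 0.20 after LPS and -0.17 (adjusted p = 0.62, limma) after saline, a contrast that was not called (adjusted p = 0.22). Bmp4 differed by -1.72 ± 0.22 and the lineage factor Olig2 by -0.84 ± 0.16.

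Choroid plexus markers were lower too, on an uneven wild type. Of 14 measured, 8 were counted lower (57.1%, against 22.3% of all genes) and 0 higher (against 25.3%). Their median was -1.38 (-1.20 with genes below background at their bound, -0.64 with normexp). The list level was -0.68, -1.47, -0.55 and -3.22 on the wild-type LPS arrays and -2.92, -3.20, -3.21 and -3.20 on the knockout arrays, so wild-type array 4 lay below every knockout array. Enpp2, autotaxin, which is also made by oligodendrocytes, read 4.52, 3.20, 4.17 and 3.30 against 2.45, 2.39, 2.31 and 2.52 (-1.38 ± 0.29, adjusted p = 0.00318, limma). Cldn2, a claudin of the plexus epithelium, and the transcription factor Otx2 were detected on 3 wild-type and 0 knockout arrays, at least 1.84-fold and 2.29-fold lower, and neither passed with normexp. The lower count was 13 without wild-type array 4, but 3, 2 and 2 without wild-type arrays 1, 2 and 3, 4 without knockout array 2, 2 without slide 1 and 5 with normexp. The median was -0.88 without wild-type array 1, -0.64 without slide 1 and -2.20 without slide 2. Without knockout array 3 or 4 it was 5, without slide 3 it was 4 and without slide 4 it was 3.

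**Figure D4:**
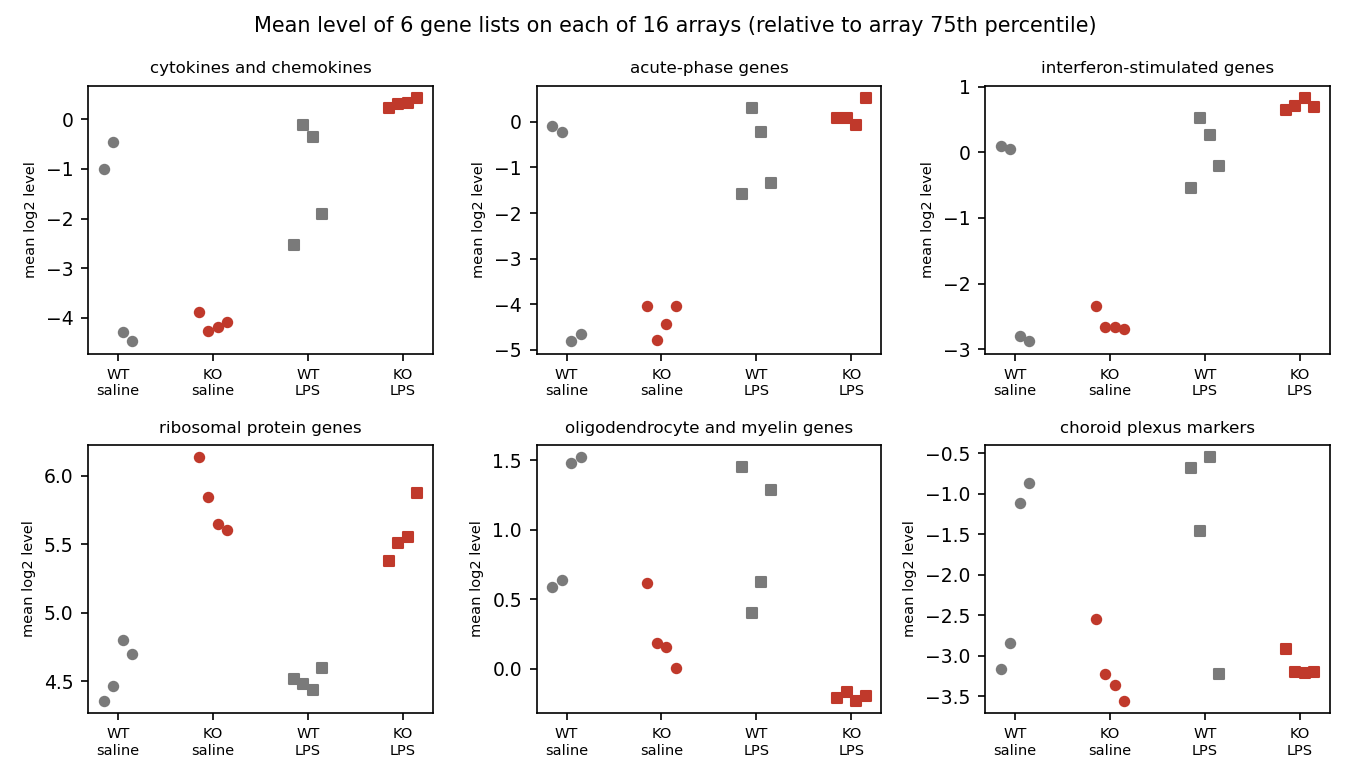
Mean relative log2 intensity (y axis, log2 units) of the measured members of selected gene lists on each of the 16 arrays, by group; each point is an array. Knockout LPS arrays have the highest cytokine levels (0.23 to 0.43) and the lowest myelin levels, while the wild-type LPS arrays spread from -2.53 to -0.12 for cytokines and from -3.22 to -0.55 for choroid plexus markers.

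Astrocyte and vessel genes gave smaller and less even differences. Of 21 reactive astrocyte genes, 7 were counted higher (33.3%, against 25.3% of all genes) and 2 lower (9.5%, against 22.3%). The median was 0.42, but 0.155 without wild-type array 4. Sphk1, sphingosine kinase, differed by 1.23 ± 0.25 and the filament protein Vim by 1.26 ± 0.30. That higher count was 4 without knockout array 4, 2 without slide 3 or slide 4 and 2 in the fit of all 16 arrays, and Vim did not pass without slide 3. Gfap, the classic reactive marker, had probes at -1.18, -0.49 and 0.91, although in the knockout the same probes differed by 1.13, 1.15 and 1.93 between LPS and saline, the second without passing the test (adjusted p = 0.186, limma). Homeostatic astrocyte markers had 2 of 18 higher (11.1%, against 25.3% of all genes) and 4 lower (22.2%, against 22.3%). Their lower count was 2 without knockout array 4, slide 1 or slide 4. Sox9, a glial transcription factor, read 1.14, 1.31, 1.22 and 1.07 in the wild type and 3.0, 2.87, 2.88 and 2.92 in the knockout (1.73 ± 0.12, adjusted p = 1.98e-05, limma) with 3 agreeing probes, and 0.70 after saline. The sodium pump subunit Atp1b2 differed by -1.55 ± 0.17. Endothelial and barrier markers had 9 of 24 lower (37.5%, against 22.3% of all genes) and 3 higher (12.5%, against 25.3%). Their median was -0.19, and 0.00 with normexp. Ly6a differed by -1.62 ± 0.18, the junction protein Tjp1 by -0.76 ± 0.17 and the glucose transporter Slc2a1 by 1.10 ± 0.16. The lower count of 9 was 5 without slide 1, 5 without slide 3, 3 without slide 4, 4 with normexp and 4 in the fit of all 16 arrays, where Tjp1 did not pass.

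Genes that mark brain regions varied between the wild-type arrays. Of 22 identity genes of striatum and central amygdala, 5 were counted lower, near the 22.3% of all genes, and 0 higher, against 25.3%, with a median of -0.60 (-0.40 without slide 1). After saline 11 were counted lower and 0 higher. Ppp1r1b, the dopamine-signalling protein DARPP-32, read 1.59, -0.35, 0.50 and 0.53 in the wild type and -1.04, -1.24, -0.96 and -1.23 in the knockout (-1.68 ± 0.34, adjusted p = 0.00286, limma). Isl1, a striatal transcription factor, differed by -1.67 ± 0.38 but did not pass with normexp or without slide 4. The dopamine receptor Drd2 (-1.20 ± 0.51) and the adenosine receptor Adora2a (-0.89 ± 0.36) did not pass (adjusted p = 0.0678 and 0.0617, limma), and wild-type array 1 was the highest array for all 4 genes. The lower count was 9 without wild-type array 2, 3 without knockout array 2, 8 without slide 2 and 2 without slide 4. Among 27 genes of cortex, hippocampus and basolateral amygdala, 9 were lower and 2 higher, with a median of 0.03 that was -0.18 with normexp (5 lower without slide 3 or slide 4). Tbr1 and Neurod6, factors of excitatory neurons, differed by -1.14 ± 0.18 and -1.15 ± 0.17, whereas Mef2c differed by 1.66 ± 0.19.

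Subunits of receptors for the brain's main transmitters were set beside the shares over all genes (25.3% higher, 22.3% lower). GABA subunits were counted higher in 14.3% and lower in 28.6%, and glutamate subunits in 22.7% and 4.5%. Of 14 GABA receptor subunits, 4 were lower and 2 higher (median -0.29, but 0.27 without slide 1, -0.18 without wild-type array 1 and -0.49 without slide 2). Gabrg1 read 2.98, 2.95, 3.21 and 2.80 against 1.76, 1.65, 1.99 and 1.52 (-1.26 ± 0.15, adjusted p = 0.000219, limma). Gabrg3 differed by -0.96 ± 0.17 and Gabra5 by -0.87 ± 0.16, each with 2 agreeing probes. The probes of Gabra2 (-1.92 and 1.08) and Gabrb2 (-1.13, 0.22 and 1.43) disagreed. Of 22 glutamate receptor subunits, 5 were higher and 1 lower (median 0.27, -0.07 as a mean over probes, 0.45 without slide 2 and 0.16 without slide 3). The kainate subunit Grik5 read 2.08, 2.39, 2.37 and 2.76 against 3.75, 3.86, 3.94 and 4.15 (1.53 ± 0.17, adjusted p = 0.000153, limma). The glutamate count was 3 without slide 1, slide 3 or slide 4, and 3 with G+C regressed out. Whether the 2 families differ from each other was not tested.

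Receptors and peptides tied to mood and stress were counted close to the shares over all genes. Of 27 monoamine and acetylcholine receptors, 7 were higher and 5 lower, against 25.3% and 22.3% of all genes. Htr1a, the serotonin 1A receptor, read -1.14, -1.0, -0.82 and -0.95 in the wild type and -2.04, -2.79, -3.06 and -3.44 in the knockout (-1.85 ± 0.27, adjusted p = 0.00048, limma), and -2.45 after saline. Chrm1, a muscarinic receptor, read -5.72, -5.10, -6.00 and -5.19 against -0.51, -0.22, -0.28 and -0.71 and was detected on 1 of 4 wild-type arrays. It was kept only through the knockout arrays, so no test is given. With only probes detected on all 8 arrays, its remaining probe differed by 0.28 and did not pass. Of 33 neuropeptides and receptors, 7 were higher and 7 lower, near the shares over all genes. Npy, an abundant peptide of interneurons, read 0.53, 0.45, 0.51 and 0.45 against 1.65, 1.80, 2.11 and 2.43 (1.51 ± 0.18, adjusted p = 0.000189, limma). The cholecystokinin receptor Cckbr read 1.83, 1.54, 1.61 and 2.07 against 0.19, 0.30, 0.24 and 0.55 (-1.44 ± 0.16, adjusted p = 0.000141, limma) with 2 agreeing probes. The stress-peptide receptor Crhr2 differed by 1.09 ± 0.14, the neurokinin receptor Tacr3 by -0.97 ± 0.12 and Sst, somatostatin, did not pass (0.46 ± 0.19). The neuropeptide lower count was 3 without slide 4. The receptor lower count of 5 was 3 without wild-type array 1 or knockout array 1, 2 without slide 4 and 2 with normexp.

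Of 18 enzymes and transporters for monoamines, kynurenine and biopterin, 4 were higher (22.2%, against 25.3% of all genes) and 2 lower (11.1%, against 22.3%). Without slide 4, 2 were higher. The biopterin enzymes went apart, with Qdpr, which regenerates tetrahydrobiopterin, at -1.65 ± 0.27 and Gchfr, which restrains its synthesis, at 1.83 ± 0.17. Ido1, which opens the kynurenine route, differed by -0.86 ± 0.40 and did not pass (adjusted p = 0.096, limma). Of 21 glucocorticoid-responsive genes, 5 were higher (23.8%) and 6 lower (28.6%), near the 25.3% and 22.3% of all genes. Mt2, a metallothionein, read 6.78, 6.64, 6.81 and 6.66 against 7.66, 8.02, 7.87 and 8.26 (1.23 ± 0.16, adjusted p = 0.000259, limma), and after saline 0.38, or 0.86 without wild-type saline arrays 1 and 2. The mineralocorticoid receptor Nr3c2 differed by 1.11 ± 0.17. The count of 6 was 3 without wild-type array 1 or 4 or knockout array 1, 2 or 3, 3 without slide 1, 2 without slide 3 and 1 without slide 4.

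Clock genes had 6 of 20 members lower and 3 higher (median -0.31; 1 higher without slide 1, 0 without slide 4). Per3 read -2.37, -2.93, -2.67 and -2.01 in the wild type and -4.37, -4.37, -4.38 and -4.83 in the knockout (-1.99 ± 0.21, adjusted p = 0.000123, limma). Nr1d2, the repressor REV-ERBβ, read 2.04, 1.76, 1.92 and 1.73 against 0.37, -0.03, 0.24 and 0.10 (-1.69 ± 0.15, adjusted p = 4.73e-05, limma). Both genes have 1 probe and gave -2.02 and -1.80 after saline. The time of day of each collection is not given in the sources used here. Immediate early genes, which neurons switch on with activity, had 6 of 21 higher and 2 lower (3 higher without slide 4). The higher share, 28.6%, was near the 25.3% of all genes, and the lower share, 9.5%, was below their 22.3%. Egr3 differed by 2.78 ± 0.43 and Gadd45b by 2.31 ± 0.30, Egr2 by -0.99 ± 0.22 (not passing without slide 4), and Arc did not pass (-0.66 ± 0.31). Neurotrophins and their receptors had 1 of 16 higher (6.2%, against 25.3% of all genes) and 3 lower (18.8%, against 22.3%). Voltage-gated channel subunits had 5 of 36 higher (13.9%) and 6 lower (16.7%), with Kcnd2 at -1.27 ± 0.20. The neurotrophin lower count was 5 without wild-type array 1 and 1 without slide 3. The channel counts went down to 1 higher without slide 1 and 2 lower without knockout array 2 or slide 4.

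Genes of the ribosome and of mitochondrial respiration were higher in the knockout as groups. Of 77 ribosomal protein genes, 52 were counted higher (67.5%, against 25.3% of all genes) and 1 lower (1.3%, against 22.3%). Their median was 1.03. Rpl30 read 2.22, 2.33, 2.16 and 2.26 in the wild type and 4.63, 4.90, 4.86 and 5.47 in the knockout (2.72 ± 0.18, adjusted p = 1.63e-05, limma). Rpl19 read 4.42, 4.55, 4.25 and 4.59 against 6.42, 6.36, 6.66 and 6.61 (2.06 ± 0.14, adjusted p = 1.71e-05, limma). Both have 2 agreeing probes. Of the 43 members with 2 or more probes, 24 were counted higher and 0 lower, but Rplp0 had probes at 2.20, -0.30 and -0.33. The median was 0.86 with G+C regressed out and 0.76 with quantile normalization. After saline 55 members were counted higher and 1 lower.

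Of 77 subunits of oxidative phosphorylation, 50 were higher (64.9%, against 25.3% of all genes) and 3 lower (3.9%, against 22.3%). Their median was 0.78. Cox7c, a small subunit of cytochrome c oxidase, read -0.81, -0.66, -0.80 and -0.72 in the wild type and 2.28, 2.52, 2.37 and 3.02 in the knockout (3.30 ± 0.18, adjusted p = 7.79e-06, limma). Cox6c read 4.50, 4.58, 4.56 and 4.48 against 6.26, 6.49, 6.56 and 6.93 (2.03 ± 0.16, adjusted p = 3.33e-05, limma). The groups lay apart in both genes. Ndufb9, of complex I, differed by 1.80 ± 0.14, while the probes of Ndufv3 disagreed. Quantile normalization moved the median to 0.49. After saline 45 were counted higher and 1 lower. Proteasome subunits had 8 of 34 higher (5 without slide 4) and 3 lower (10 with normexp). Heat shock chaperones had 3 of 26 higher and 5 lower (9 lower with quantile normalization), with Hsp90aa1 at 1.83 ± 0.15 and Hspb8 at -1.23 ± 0.17. General neuronal markers had 4 of 25 higher and 5 lower, 2 higher and 3 lower without slide 3 or slide 4 and 2 lower without knockout array 1 or with the replicate block, with Uchl1 at 2.55 ± 0.17 and the synaptic vesicle protein Syp at -0.82 ± 0.17.

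**Figure D5:**
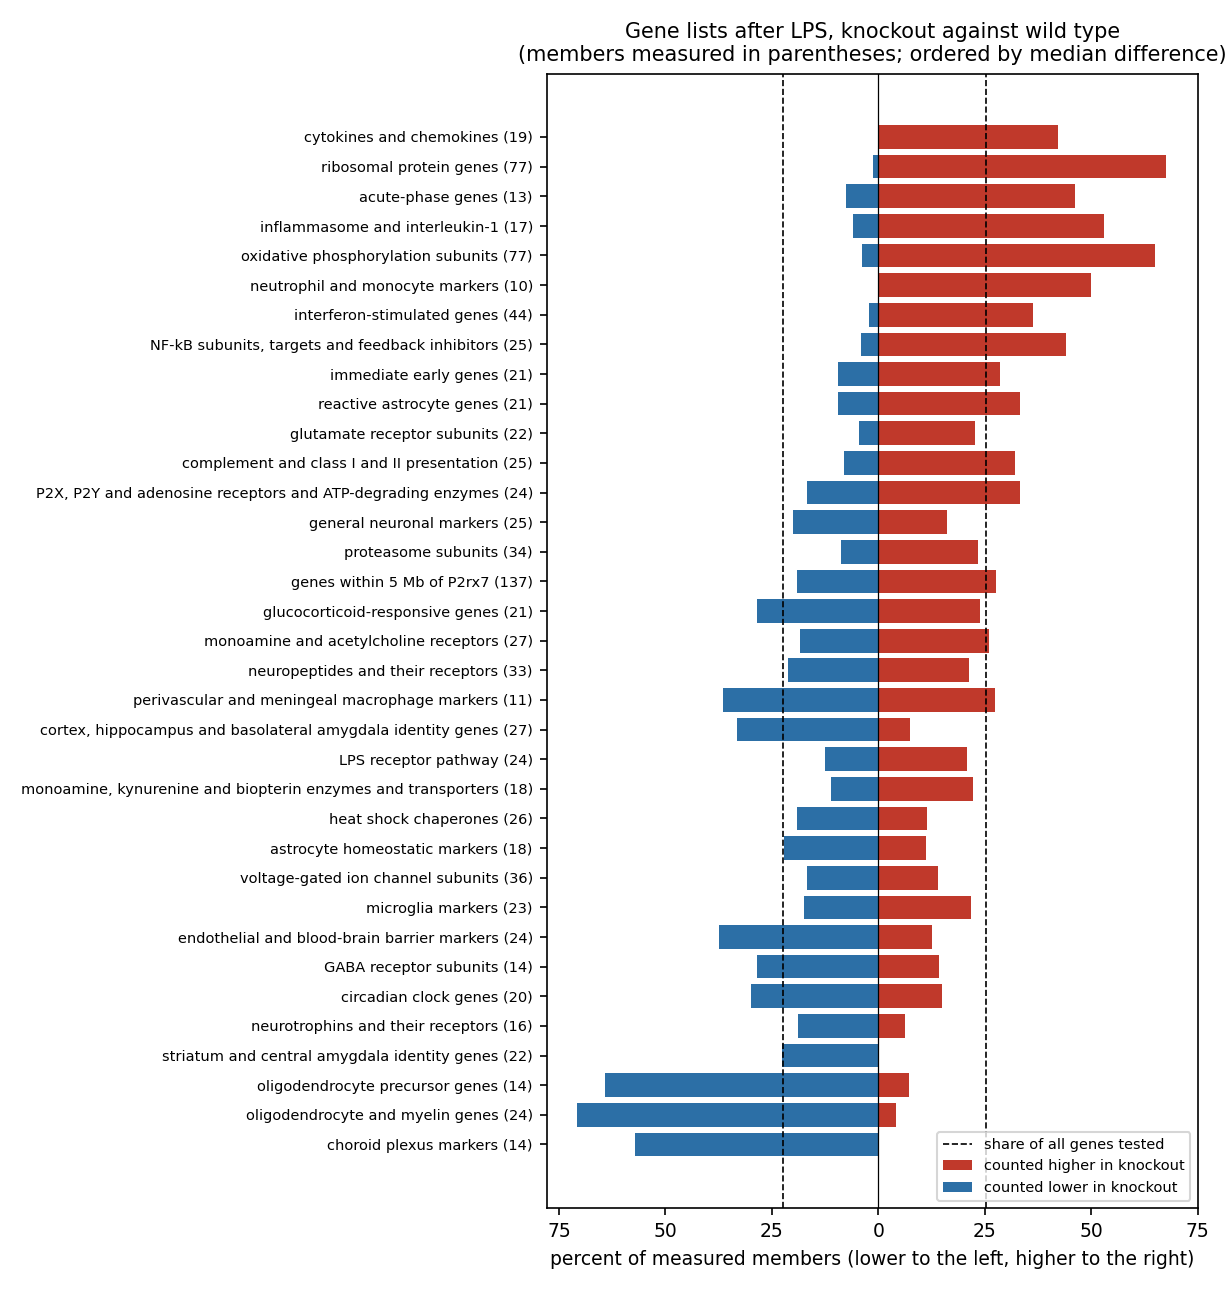
Percent of the measured members of each gene list that were counted higher (red, to the right) or lower (blue, to the left) in the knockout after LPS, with the number measured in parentheses and lists ordered by median difference. Dashed lines mark the shares over all genes, 25.3% higher and 22.3% lower; cytokines (8 of 19 higher), ribosomal proteins (52 of 77) and acute-phase genes (6 of 13) stand at the top and myelin genes (17 of 24 lower) and choroid plexus markers (8 of 14) at the bottom.

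Genes near P2rx7 on chromosome 5, which a congenic stretch around a targeted gene can carry along, were counted close to the share over all genes. Of 137 measured genes within 5 Mb, 38 were higher and 26 lower (15 lower without slide 3), with a median of 0.12 that was -0.03 with quantile normalization. Besides Hcar2, Tctn2, a protein of the ciliary transition zone, differed by 1.90 ± 0.16, Iqcd by 1.58 ± 0.16 and the RNA helicase Ddx54 by 1.31 ± 0.14.

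Many differences after LPS were also measured after saline. In the saline arrays, which share the slides and sessions but no array, 3828 genes were counted higher (20.3%) and 2865 lower (15.2%), 6693 in all and 3976 without wild-type saline arrays 1 and 2. The differences of all 18817 genes correlated with r = 0.856 between LPS and saline, a description over genes whose arrays share sessions. Of genes with 2 or more probes, 966 were counted in both: 394 higher in both, 570 lower in both and 2 in opposite directions. The contrast of the LPS and saline differences was called in 7 genes over all tested, and in 1 of the genes named here, Ccl4.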

How the data were processed

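Total RNA of whole amygdala was labelled with Cy3 and hybridised to one-colour Agilent arrays, per the labels' protocols. The deposited scanner files hold the authors' processed intensity per spot (the submitters' processing notes name Agilent Feature Extraction 9.5), background-subtracted and spatially detrended per the file headers, with surrogate values for dim spots and coordinates on mm9; the deposited fold table gives linear fold changes whose making is not given in the sources used here. That table's 31 named columns of detection calls and 1 unnamed column were not used; all 6738 of its 2-fold probes that were kept here had the same direction as in this fit. Control spots and outlier flags were left out, and intensities were scaled to each array's 75th percentile and taken as log2. A probe was kept where well above background on at least 3 of 4 arrays of either LPS group, leaving 27255 of 41174. Names came from accessions matched to a RefSeq gene table for 25001 probes, from symbols for 5960, and stayed as in the files for 10213. The 4 knockout and 4 wild-type LPS arrays were fitted in limma 3.58.1 (R 4.3.3), 2-sided, with Benjamini-Hochberg adjustment over 18817 genes (over 27255 probes where a probe is named). The brightest probe stood for a gene, and a gene counted only if all its kept probes agreed in direction. Named genes were P2rx7, the 10 highest and 10 lowest counted genes with agreeing probes and arrays apart, 3 detected in one genotype each way, up to 4 counted (smallest adjusted p) and 3 other members (largest difference) of each list, genes within 5 Mb of P2rx7, and members with opposed probes; some genes that this rule names are not reported here. The comparison, its genes and its lists were chosen with earlier results of these data known. Lists are described by counts and medians, with no test. Replicate numbers do not pair the arrays (correlations of same-numbered deviations -0.039, -0.05, 0.053 and -0.095). Alternatives covered background correction, scaling, filters, probe rules, blocks, G+C, and leaving out each array or slide. The code was tested on simulated data.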

Additional observations from a re-analysis of the deposited data

Results flagged for a closer look

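In groups of 4 arrays, 1 array stood apart from the other 3 by Dixon's criterion in 17 of the 394 groups examined (4.3%), and chance alone gives about 1 in 20. On the wild-type LPS arrays these were Nrep on array 4 (0.02, the others -1.91 to -1.62), Alpl on array 1 (-1.08, others -1.38 to -1.35), C1ra on array 2 (-3.58, others -7.17 to -6.86), Mef2c on array 3 (2.57, others 3.11 to 3.16), Pecam1 on array 1 (-2.50, others -2.98 to -2.93) and Cntf on array 3 (1.12, others -0.85 to -0.53). The mean level of oligodendrocyte precursor genes on wild-type array 1 (-0.01, others -0.32 to -0.28) was apart as well.

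On the knockout LPS arrays they were Cldn15 on array 4 (-2.11, others -2.42 to -2.37), Socs1 on array 1 (0.69, others 1.03 to 1.08), Nfkbie on array 4 (-0.21, others -0.56 to -0.52), Mx2 on array 1 (0.42, others 0.89 to 0.99), Gabrb2 on array 3 (4.79, others 5.15 to 5.18) and Kcnd2 on array 2 (1.71, others 2.21 to 2.23). Per3 (-4.83, others -4.38 to -4.37) and Per1 (1.48, others 1.96 to 2.00) both stood apart on array 4. Choroid plexus markers (-2.92, others -3.21 to -3.20) and complement and presentation genes (0.11, others 0.24 to 0.26) stood apart on array 1.

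The knockout minus wild-type difference of Ccl4 after LPS, less that after saline, was 4.86 (adjusted p = 0.0405, limma over 16 arrays). All 4 knockout LPS arrays lay above all 4 wild-type LPS arrays.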

How the results depend on the processing

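The count of genes after LPS, 8958, ranged from 7618 to 9126 when single arrays were left out and was 8273 with the replicate number as a block, a pairing the data did not bear out and under which the downstream P2rx7 probe kept an adjusted p of 0.0018 (limma). Requiring a 2-fold difference left 4570 genes (2640 higher, 1930 lower; 729 with 2 or more probes), while genes with 2 or more probes numbered 3273 without the agreement rule and 1037 when every probe had to be called. The saline count of 6693 was 10603 without the filter, 3963 without slide 1 and 3976 without wild-type saline arrays 1 and 2. The contrast of LPS and saline differences was called in 1 named gene. It was called in 0 named genes with normexp, the array median, no filter, the replicate block or G+C regressed out, and in 0 without slide 1, 3 or 4 and without wild-type saline arrays 1 and 2 (the last chosen after seeing the data, as was leaving out single saline arrays). The count was 2 with quantile normalization, 2 with slides as a random block (correlation 0.101) and 34 without slide 2, and it ranged from 0 to 3 when single arrays were left out. Slide 2 held wild-type saline arrays 3 and 4. Without it the wild-type saline group was arrays 1 and 2, which stood near the LPS arrays in inflammatory genes. The downstream P2rx7 difference kept its sign and its call in the 26 alternatives run (-1.84 to -1.46). The exon-spanning probe turned to -0.027 with G+C regressed out, -0.22 without slide 1 and -0.10 without slide 4, and ranged from -0.055 to 0.22 when single arrays were left out. Signs also turned for Casp1 (-0.023 with normexp), Hsbp1 (-0.16 with normexp, -0.34 with quantile normalization), Nfkb1 (0.04 as a mean of probes) and Smarca5 (0.38 without slide 1). Those of Mbp (3.27 with normexp, 2.27 without slide 1, 3.42 without slide 2, and -1.45 to 2.54 without single arrays), Itgam (-1.01 without slide 3, -0.44 without slide 4) and Syn1 (-1.10 without slide 3, -0.94 without slide 4) turned as well. For these and Smarca5 the brightest probe became another, and for Nfkb1 all probes were averaged; the cause of the other turns was not tested. Among named genes, 67 fits lost a call, 35 gained one and 4041 did neither. Genotype and scan session coincide under every setting, and dim probes carry the authors' surrogate values, which limits differences near background.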
